A study of Mus musculus with 11 samples.

Results

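A set of 69 testis germ cells with the highest summed expression of 6 genes, among them Id4, was described. The cells came from adult mouse testes carrying a Dazl-GFP reporter, a green fluorescent protein gene tied to Dazl, which is active in germ cells, and live GFP-positive cells were measured by SORT-Seq, which places 1 sorted cell in each well of a plate and counts the 3′ ends of its messenger RNA. No mouse was treated, so every comparison was between wells of the same mouse, and the replicate was the mouse (n = 3). Mouse 1 gave 8 libraries on plates 3 and 5 by CEL-Seq1, mouse 2 gave 1 library on plate 6 by CEL-Seq2, and mouse 3 gave plates 8 and 10 by CEL-Seq2. Plate 8 was filled by a gate alone, and the other plates by index sorting, where the fluorescence values of every cell are stored. Because mouse 1 alone was measured by CEL-Seq1, the protocol and that mouse cannot be told apart.

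The members were chosen by their own expression. Wells with at least 10000 unique molecular identifiers (UMIs, the tags that count single RNA molecules) were kept, which left 861 of 1920 wells. Each kept well was scored by the mean of ln(1 + UMIs per 10000) over Ptchd3, Gstt2, Sgpp1, Id4, Tmem159 and 1700042G15Rik, and the top 8% within each mouse became the Id4-score wells, 28 of 349 in mouse 1, 13 of 158 in mouse 2 and 28 of 354 in mouse 3. The other 792 kept wells served as the background. Among them, 63 wells highest for Gml and Hemt1 and 54 wells highest for Aym1 and Slc47a2 were taken as the nearest neighbours, meant to lie before and after the Id4-score wells in pachytene. A well that ranked in more than one list stayed with the Id4-score wells, which was the case for 6 members also high for Gml and Hemt1 and 15 members also high for Aym1 and Slc47a2.

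Pachytene is the long stage of meiotic prophase in which paired chromosomes are held together by the synaptonemal complex, recombination intermediates are turned into crossovers, and the X and Y chromosomes are silenced in the XY body (meiotic sex chromosome inactivation). Transcription of the autosomes rises during the same stage, with genes of pachytene piRNAs, the acrosome and the sperm tail coming on well before spermatids form. Id4 encodes an inhibitor of DNA binding, a helix-loop-helix protein without a basic region that binds E proteins and keeps them off DNA. In the testis it is best known as a marker of spermatogonial stem cells.

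The label of the cells was checked against marker lists. All 18 pachytene markers were detected in the Id4-score wells, and their summed level was 72.0, 94.2 and 106 UMIs per 10000 in mice 1, 2 and 3, against 50.7, 69.0 and 84.3 in all other kept wells. Markers of undifferentiated spermatogonia summed to 0.0531, 0.119 and 0.155 in the Id4-score wells and to 1.05, 1.70 and 1.38 in the others, with Nanos2 and Upp1 at 0 in the members. Differentiating spermatogonia markers were also low, at 1.61, 2.27 and 1.87 against 6.38, 10.5 and 9.22. Both spermatogonial lists were thus below, and the pachytene list above, the level of the other wells in every mouse, and the cells were pachytene-like by these markers. Leptotene and zygotene markers were still present at 5.44, 4.15 and 3.75 UMIs per 10000, against 6.09, 5.17 and 4.77 in the others. Spermatid markers summed to 0.236, 1.24 and 0.799. Of the somatic cells of the testis, 4 of 9 Sertoli cell genes (Amh, Gata4, Cldn11 and Inha) had no UMI in any member. The same held for 3 of 5 Leydig cell genes (Cyp17a1, Cyp11a1 and Hsd3b1) and 1 of 5 peritubular and endothelial genes (Myh11). The other Sertoli genes, Sox9, Wt1, Rhox8, Ctsl and Gstm6, had UMIs in the members, as did the Leydig genes Star and Insl3. The whole Sertoli list summed to 0.974, 0.711 and 0.552 UMIs per 10000 in the members, against 1.17, 1.18 and 1.14 in the other kept wells and 2.40, 2.01 and 3.27 in the wells highest for Gml and Hemt1, and the Leydig list to at most 0.0531. The peritubular and endothelial list summed to 0.106, 0.0790 and 0.0862 in the members, slightly above 0.0682, 0.0689 and 0.0817 in the others. The part of these lists in the results was not tested. A count of 0 over all members allows a level of up to 0.00761 UMIs per 10000 (3 counts of 3940354 UMIs, counting error only).

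The score showed no gap at the limit. In mouse 1 the last member scored 1.3471 and the first well outside 1.3469, in mouse 2 the scores were 1.4213 and 1.4019, and in mouse 3 they were 1.4115 and 1.4077. Within 0.1 of the limit lay 43 of the 69 members and 58 wells outside. The set is a range cut from a score, and whether it is a separate type of cell was not tested. All 6 genes had a UMI in 64 members, and 5 of the 6 in the other 5 members. Leaving out 1 of the 6 genes kept 57 to 60 of the 69 members, and thinning every well to 10000 UMIs kept 42 of them (60.9%).

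**Figure D1:**
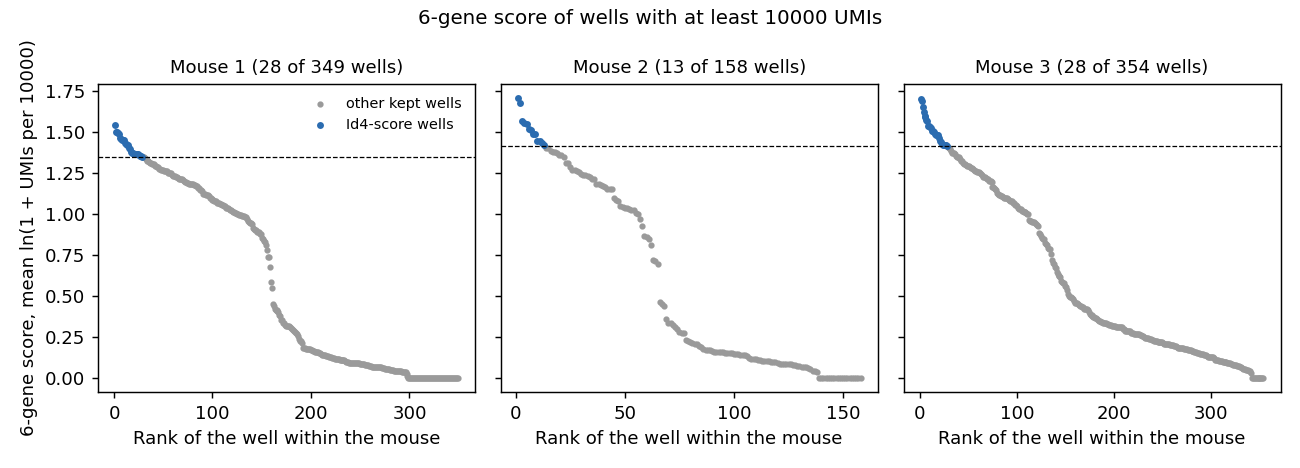
Score of each kept well (vertical axis, mean ln(1 + UMIs per 10000) over the 6 genes) against its rank within the mouse (horizontal axis), with the Id4-score wells in blue and the other kept wells in grey. There is no gap at the 8% limit, which lies between 1.3471 and 1.3469 in mouse 1.

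Depth differed between the groups. The Id4-score wells had a median of 49775, 29821 and 60190 UMIs in mice 1, 2 and 3. The Gml/Hemt1-high wells had 24615, 23241 and 19349, and the Aym1/Slc47a2-high wells 71650, 45160 and 95532. Against the spike-in RNA added to each well, the Id4-score wells had 329.65, 102.41 and 75.651 UMIs per ERCC UMI. These ratios were 135.9, 47.402 and 27.488 in the Gml/Hemt1-high wells and 388.25, 153.52 and 133.28 in the Aym1/Slc47a2-high wells. The members thus held 2.43 times as much RNA per spike-in as the first neighbours (mean log2 difference 1.28 ± 0.17, SD, n = 3) and 0.685 times as much as the second (−0.55 ± 0.29, SD, n = 3), in 3 of 3 mice each. An exact two-sided sign-flip test over 3 mice gave p = 0.25 for both, the smallest p this design allows. In mouse 3 the members made up 23 of 220 kept wells on the gate-sorted plate 8 (10.5%, exact 95% interval 6.74 to 15.3%) and 5 of 134 on the index-sorted plate 10 (3.73%, 1.22 to 8.49%). These intervals treat wells as independent, and the score limit was set over both plates together. With a single plate for each way of sorting, an effect of sorting cannot be told from a difference between plates. No 2 of the 861 kept wells had identical profiles.

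Promoters of the score genes are shown because these genes were chosen for being high in the same wells. They are the 250 bases before the transcription start in RefSeq (GRCm38.p6), written 5′ to 3′ on the strand of the gene. RefSeq promoters matched 4 of the 6 genes. Capitals mark matches, on either strand, to the motif TAACNG of MYB proteins or the motif GTTGCN of RFX proteins, both of which are families with members active in spermatocytes. Ptchd3 is at chr11:121829968-121830217 (plus strand) and the window overlaps an exon of Gm15643. Sgpp1 is at chr12:75735730-75735979 (minus strand), Id4 at chr13:48260866-48261115 (plus strand) and 1700042G15Rik at chr4:57364293-57364542 (minus strand).
Ptchd3: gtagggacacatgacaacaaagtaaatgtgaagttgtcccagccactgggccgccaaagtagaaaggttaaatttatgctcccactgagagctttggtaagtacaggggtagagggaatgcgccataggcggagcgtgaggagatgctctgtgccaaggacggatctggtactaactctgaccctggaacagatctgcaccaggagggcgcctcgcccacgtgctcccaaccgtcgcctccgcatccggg
Sgpp1: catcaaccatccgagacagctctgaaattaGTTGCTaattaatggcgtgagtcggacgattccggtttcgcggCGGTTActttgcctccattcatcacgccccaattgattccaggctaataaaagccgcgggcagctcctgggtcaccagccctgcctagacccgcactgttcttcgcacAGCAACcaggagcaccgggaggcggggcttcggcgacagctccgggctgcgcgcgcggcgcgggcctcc
Id4: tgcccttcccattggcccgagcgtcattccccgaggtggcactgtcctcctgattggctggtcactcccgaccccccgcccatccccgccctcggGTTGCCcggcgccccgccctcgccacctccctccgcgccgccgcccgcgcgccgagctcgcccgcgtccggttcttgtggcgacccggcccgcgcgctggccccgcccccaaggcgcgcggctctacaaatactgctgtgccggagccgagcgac
1700042G15Rik: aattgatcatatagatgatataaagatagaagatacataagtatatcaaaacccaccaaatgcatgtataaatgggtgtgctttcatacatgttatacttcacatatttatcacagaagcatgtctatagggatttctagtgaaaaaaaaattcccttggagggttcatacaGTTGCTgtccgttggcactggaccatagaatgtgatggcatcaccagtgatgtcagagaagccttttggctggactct
The Id4 window held 1 RFX match 155 bases before the start, the 1700042G15Rik window 1 at 78 bases, and the Sgpp1 window 2 at 220 and 69 bases with 1 MYB match at 177 bases. No match overlapped another, and the Ptchd3 window held none. Of 32544 mouse promoters of this length, 29.6% held an RFX match and 19.9% a MYB match, so these matches are common. Neither TGACGTNA, the motif of CREM (in 2.53% of promoters), nor CACGCG, taken for TCFL5 (7.67%), was in any of the 4 windows. The matches are descriptions of sequence and were not tested as binding sites. Gstt2 and Tmem159 are named only.

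The 6 score genes are described without a test, because their values chose the wells. Id4 lies on chromosome 13 (GRCm38, 48261228 to 48266026, plus strand). It was at 4.30, 4.78 and 4.96 UMIs per 10000 in the Id4-score wells of mice 1, 2 and 3 (4.68 ± 0.34, SD, n = 3). The Gml/Hemt1-high wells held 2.22, 2.52 and 2.10 and the Aym1/Slc47a2-high wells 3.19, 3.83 and 3.65. In single members of mouse 1 the lowest, median and highest levels were 2.71, 4.17 and 6.95, in mouse 2 they were 2.92, 4.75 and 7.57, and in mouse 3 they were 2.90, 4.99 and 8.12. Every member therefore held Id4, with between 4 and 83 UMIs a well. The 69 wells ranked highest for undifferentiated spermatogonia markers, the same number per mouse as the members, held Id4 at 0.386, 1.05 and 1.04. The Aym1/Slc47a2-high wells were not chosen on Id4, and there too the Id4 level was above that of the undifferentiated wells in 3 of 3 mice. Of the other Id genes, Id1 had 1 UMI and Id2 and Id3 none in all members together. The other kept wells held 134, 80 and 42 UMIs of Id1, Id2 and Id3. These are raw counts at unlike depth. The members held 3940354 UMIs in all, and the kept wells outside the members and both neighbour groups alone held 27591750.

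The other 5 score genes are of unlike function. Ptchd3 (chromosome 11, 121830247 to 121843423, plus strand) encodes a patched-domain protein of male germ cells and was at 4.52, 6.65 and 6.15 UMIs per 10000 in the members. Its mean over mice was 5.77 ± 1.12 (SD, n = 3), against 2.14 in the Gml/Hemt1-high, 2.61 in the Aym1/Slc47a2-high and 1.68 in all other kept wells. The difference follows from the choice of wells. Gstt2 (chromosome 10, 75831114 to 75837424, minus strand), a theta-class glutathione transferase, was at 2.40, 2.67 and 2.60, with means of 0.844 and 1.63 in the first and second neighbours. Sgpp1 (chromosome 12, 75714249 to 75735729, minus strand), which removes the phosphate from sphingosine 1-phosphate, was at 1.59, 1.68 and 1.36, with means of 0.327 and 1.01. Tmem159 (chromosome 7, 120102353 to 120120992, plus strand), a lipid droplet assembly factor that binds seipin, was at 1.01, 1.28 and 1.22, with means of 0.363 and 0.464. The lincRNA 1700042G15Rik (chromosome 4, 57360868 to 57364292, minus strand) was at 9.14, 11.6 and 10.6, with means of 2.21 and 8.89. For 1700042G15Rik the second neighbours came close to the members, and for Ptchd3 and Tmem159 they did not. Within mouse 3, the 5 members on plate 10 held more Id4 (6.17) and Ptchd3 (8.98) than the 23 on plate 8 (4.81 and 5.77), and slightly less Sgpp1 (1.28 and 1.37) and 1700042G15Rik (9.77 and 10.7).

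**Figure D2:**
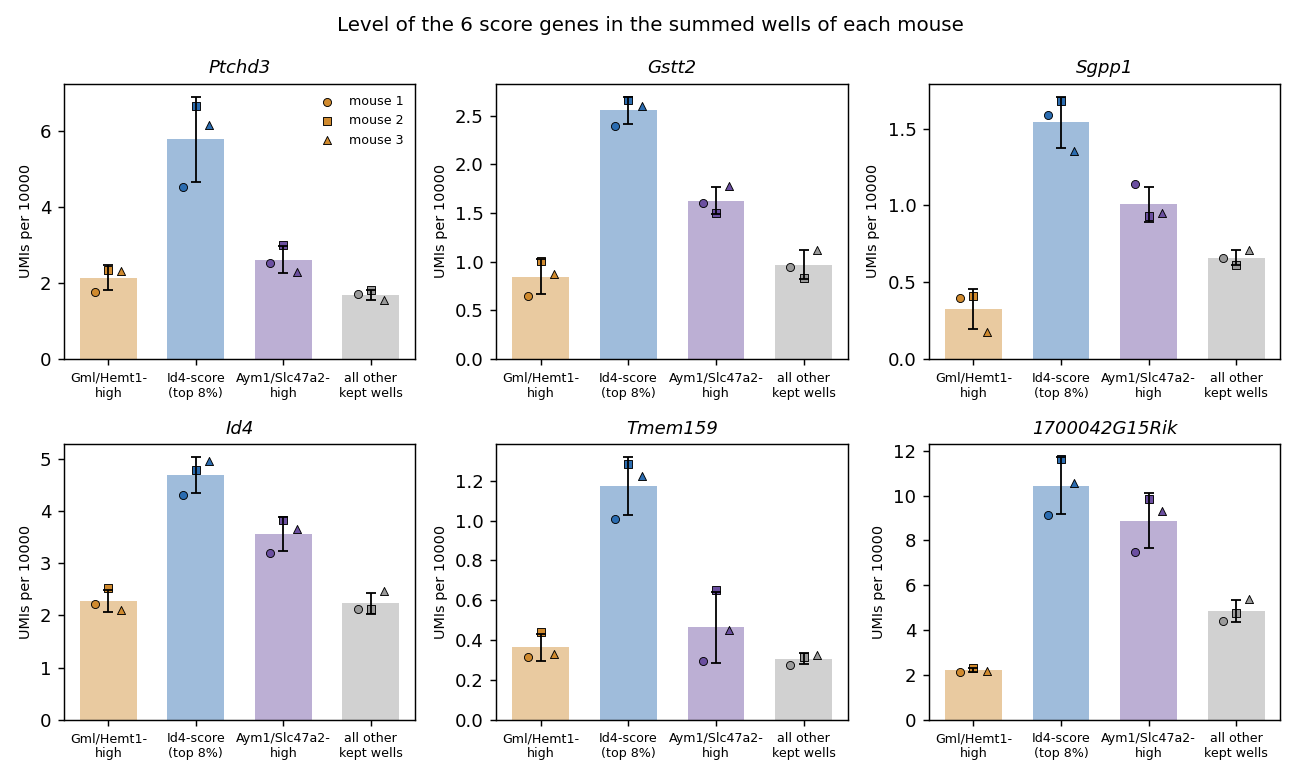
Level of each score gene (vertical axes, UMIs per 10000 of the summed wells) in the Gml/Hemt1-high, Id4-score, Aym1/Slc47a2-high and all other kept wells, the last including both neighbour groups. Bars are the mean of 3 mice, error bars the SD and points the mice; Id4 averaged 4.68 in the members, which were selected on these genes.

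The genes that chose the neighbours were present in the members too. Gml was at 5.09 ± 0.57 UMIs per 10000 (SD, n = 3) in the Id4-score wells and 9.05 in the Gml/Hemt1-high wells, and Hemt1 at 2.52 and 5.12. Aym1 was at 1.78 in the members and 2.55 in the Aym1/Slc47a2-high wells, and Slc47a2 at 2.21 and 3.22. All 69 members held a UMI of Gml or Hemt1. By these 4 genes the members overlapped both neighbours.

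Sex chromosome silencing was measured as UMIs of X-linked genes per 100 autosomal UMIs, and no X-linked gene was in the score. The Id4-score wells had 0.341, 0.142 and 0.113 in mice 1, 2 and 3, from 5748, 718 and 1962 X-linked UMIs. The Gml/Hemt1-high wells had 0.529, 0.283 and 0.381, the Aym1/Slc47a2-high wells 0.361, 0.141 and 0.105, and all other kept wells 1.14, 1.10 and 0.835. The members were thus below the first neighbours in every mouse and level with the second. Against the Gml/Hemt1-high wells the log2 difference was −0.64, −0.99 and −1.76 (mean −1.13 ± 0.57, SD, n = 3), with an exact sign-flip p of 0.25, the smallest that 3 mice allow. Against the Aym1/Slc47a2-high wells it was −0.09, 0.01 and 0.11 (mean 0.01 ± 0.10, SD, n = 3, exact sign-flip p = 0.75). That mean is negative with a top 5% (−0.08) or without mouse 3 (−0.04), so no direction was measured.

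Single members were close to the sums of their mouse. The median X share of a member was 0.313, 0.151 and 0.119, and the highest 0.627, 0.201 and 0.211. Every member was thus below 1 X-linked UMI per 100 autosomal, a level that 448 of the 792 other kept wells (56.6%) exceeded. Of the Gml/Hemt1-high wells, 3 exceeded it, all in mouse 3. In mouse 3 the members of plates 8 and 10 had X shares of 0.113 and 0.114. Y-linked RNA was rare, at 118, 32 and 78 UMIs, or 0.00699, 0.00633 and 0.00449 per 100 autosomal UMIs, and was below the Gml/Hemt1-high wells in 2 of 3 mice (exact sign-flip p = 0.5). Mitochondrial RNA made up 3.65%, 10.1% and 8.75% of the members' RNA, 6.69%, 12.7% and 14.2% in the Gml/Hemt1-high wells and 2.80%, 8.42% and 6.73% in the Aym1/Slc47a2-high wells. Its part in the results was not tested.

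**Figure D3:**
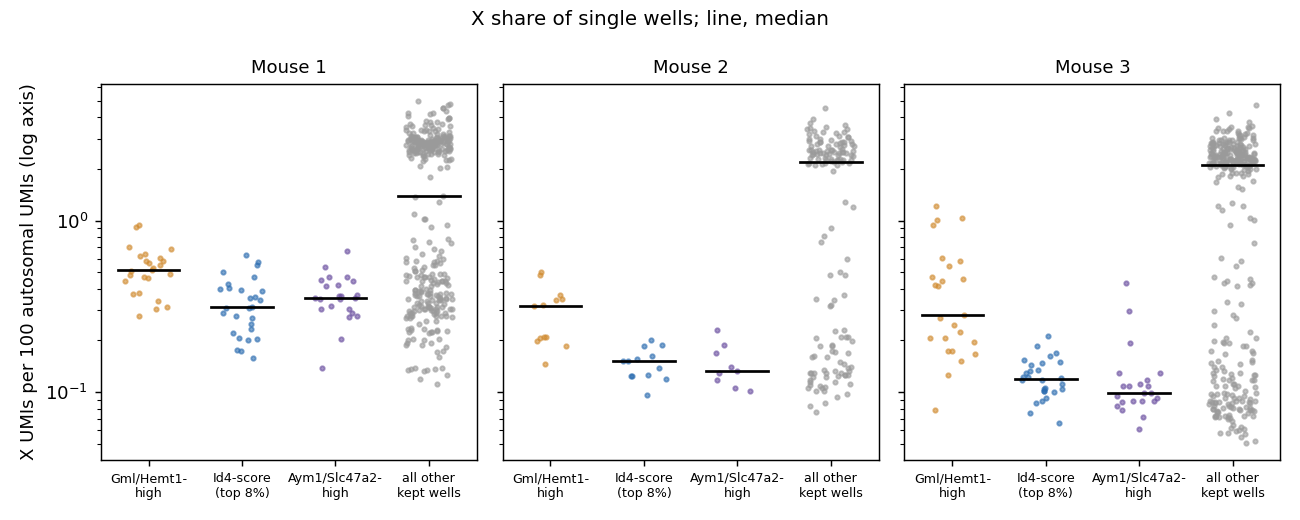
X-linked UMIs per 100 autosomal UMIs of single wells (vertical axis, log scale) by group and mouse. The Id4-score wells sit in a narrow band, with the highest at 0.627, 0.201 and 0.211 in mice 1, 2 and 3, while many of the other kept wells, which include both neighbour groups, lie above 1.

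The members were then compared with each neighbour group across 11116 genes, with UMIs summed per group and mouse and the mouse kept as a block in edgeR's quasi-likelihood test. The 10 genes that chose the 3 groups were not tested. A gene was called at a Benjamini-Hochberg adjusted p below 0.05, and fold changes are log2, members minus neighbours, with standard errors. Both comparisons use the same member sums and are not independent. Against the Gml/Hemt1-high wells 2010 genes were higher (18.1% of those tested) and 1470 lower (13.2%), and against the Aym1/Slc47a2-high wells 840 were higher (7.56%) and 923 lower (8.3%). Levels moved the same way in 3 of 3 mice for 1884, 1358, 801 and 892 of these. With DESeq2's median-ratio factors in the same fit the first split was 1755 higher and 1837 lower, and with DESeq2's own test 1534 and 1624, so the excess of higher genes against the Gml/Hemt1-high wells depends on the scaling. Over all tested genes the median log2 fold change was 0.05 and −0.01. Fewer genes were called when a mouse or plate 8 was left out, and the cause was not tested. Against the Gml/Hemt1-high wells there were 1338 higher and 883 lower without mouse 3. Against the Aym1/Slc47a2-high wells there were 480 and 589 without mouse 1, 448 and 478 without mouse 3, and 205 and 192 without plate 8. Without plate 8, which gave 23 members, 822 of the 840 higher and 860 of the 923 lower genes kept their direction.

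X-linked genes stood among the falling ones. Of 295 X-linked genes tested, 69 were lower in the members than in the Gml/Hemt1-high wells (23.4%, beside 13.2% of all genes) and 2 were higher, and 4 of 7 Y-linked genes were lower. Against the Aym1/Slc47a2-high wells 3 X-linked genes were higher and none lower. Fmr1nb, an X-linked testis antigen gene, was at 0.0236, 0.158 and 0.0172 UMIs per 10000 in the members and at 1.64, 1.67 and 2.31 in the Gml/Hemt1-high wells. The groups did not overlap, and the fold change was −5.54 ± 0.32 (adjusted p = 2.15e-15), the most negative of the genes named. Atp6ap1, a subunit of the vacuolar proton pump (−4.32 ± 0.43, 11 UMIs in all members), Gm364 (−4.22 ± 0.22) and Prdx4, a peroxiredoxin of the endoplasmic reticulum (−3.04 ± 0.22), are also X-linked and fell.

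Genes on the autosomes fell as well. Hspa5, the main chaperone of the endoplasmic reticulum, was at 3.74, 5.80 and 4.69 UMIs per 10000 in the Id4-score wells and 22.3, 47.5 and 47.2 in the Gml/Hemt1-high wells. No member sum came near the neighbours, with a fold change of −2.96 ± 0.11 (adjusted p = 1.90e-20). In the Aym1/Slc47a2-high wells Hspa5 averaged 4.22, near the members. Rad51ap2, a gene of the leptotene and zygotene marker list, averaged 0.158 in the members and 1.51 in the Gml/Hemt1-high wells (−3.43 ± 0.27). Prss50, a testis serine protease of meiotic cells (0.202 against 2.52, −3.78 ± 0.24), and Elavl3, an RNA-binding protein best known in neurons (0.168 against 2.08, −3.75 ± 0.27), fell in like measure. Fn1, fibronectin (−3.37 ± 0.38), and App, the amyloid precursor protein (−2.96 ± 0.34), complete the 10 named genes that fell.

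Among the 10 named genes that rose over the Gml/Hemt1-high wells, 2 are read here with the values of each mouse. Dnahc17, a dynein heavy chain of the sperm tail, was at 1.32, 1.22 and 1.40 UMIs per 10000 in the members and 0.0476, 0.0315 and 0.227 in the Gml/Hemt1-high wells (3.62 ± 0.28, adjusted p = 2.00e-12). Abcc12, an ABC transporter, was at 0.596, 0.454 and 0.758 against 0.0159, 0.126 and 0.035, the latter from 7 UMIs (3.80 ± 0.37, adjusted p = 6.30e-10). Every mouse was higher in the members for both genes. The others were Gpr160, an orphan receptor (3.40 ± 0.35), 4933406F09Rik (3.36 ± 0.38), 4930525D18Rik (3.29 ± 0.20), Fam50b (3.20 ± 0.33), Gm5878 (3.13 ± 0.24), Gm6567 (3.06 ± 0.24), 1700074P13Rik (3.06 ± 0.27) and Crybg3 (3.004 ± 0.38). All 10 had a higher mean in the Aym1/Slc47a2-high wells than in the members, Dnahc17 with 2.91. Their size depends on how the wells were chosen: with every well thinned to 10000 UMIs before scoring, the 10 fold changes lay between 0.89 and 2.24, in place of 3.004 to 3.796, and 9 of the 10 shrank by over 1.5 times.

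Against the Aym1/Slc47a2-high wells the 10 named genes that were higher in the members all had a still higher mean in the Gml/Hemt1-high wells. Sohlh2, a helix-loop-helix factor of differentiating spermatogonia, was at 0.638, 0.671 and 0.437 UMIs per 10000 in the members and 0.0601, 0.0609 and 0.0522 in the Aym1/Slc47a2-high wells (3.29 ± 0.26, adjusted p = 7.17e-11). In the Gml/Hemt1-high wells Sohlh2 averaged 1.35, above the members (−1.25 ± 0.18, adjusted p = 1.18e-06). The members thus lay between both neighbours for Sohlh2. Gnas, the stimulatory G protein subunit, was at 1.77, 1.99 and 1.95 in the members, 0.524, 0.730 and 0.457 in the Aym1/Slc47a2-high wells (1.86 ± 0.20, adjusted p = 1.76e-08), and 8.81, 10.2 and 15.1 in the Gml/Hemt1-high wells. Mdk, the growth factor midkine (2.87 ± 0.36), Ctsl, the lysosomal protease cathepsin L (1.99 ± 0.23), Meiob (1.91 ± 0.17, described with recombination), Acer3, an alkaline ceramidase (1.90 ± 0.17), Nisch (1.87 ± 0.17), Oat, ornithine aminotransferase (1.60 ± 0.19), Cpeb1, which controls translation through the poly(A) tail (1.57 ± 0.21), and Atp6v0b (1.56 ± 0.15) were higher too.

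Among genes averaging at least 0.5 UMIs per 10000 in the higher group, those most lowered against the Aym1/Slc47a2-high wells were 1700039E15Rik (−2.42 ± 0.26) and Mgll. Mgll, monoacylglycerol lipase, was at 0.909, 0.652 and 1.56 UMIs per 10000 in the members and 4.85, 5.70 and 6.78 in the Aym1/Slc47a2-high wells (−2.39 ± 0.13, adjusted p = 4.56e-15). All 3 mice were lower in the members, with no overlap. Phf2, a histone demethylase, averaged 0.216 in the members, 1.07 in the Aym1/Slc47a2-high and 0.541 in the Gml/Hemt1-high wells (−2.37 ± 0.17 against the former). Smarca2, an ATPase of the SWI/SNF remodelling complex, averaged 0.258 against 0.995 (−1.85 ± 0.17). Them6 (−2.24 ± 0.24), 1700051A21Rik (−2.19 ± 0.26), 1700018L02Rik (−1.90 ± 0.14), Rnaseh2a, a subunit of ribonuclease H2 (−2.00 ± 0.20), and Arsa, the lysosomal enzyme arylsulfatase A (−1.84 ± 0.25), were lower as well. Without plate 8, Rnaseh2a and Arsa were no longer called (adjusted p = 0.053 and 0.392). Tcp10a was at 0.573, 0.0592 and 0.0057 in the members and 2.23, 0.101 and 0.0435 in the Aym1/Slc47a2-high wells (−1.88 ± 0.23). Nearly all of its UMIs came from mouse 1, and it shares near-identical copies with Tcp10b and Tcp10c, so its value is uncertain.

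**Figure D4:**
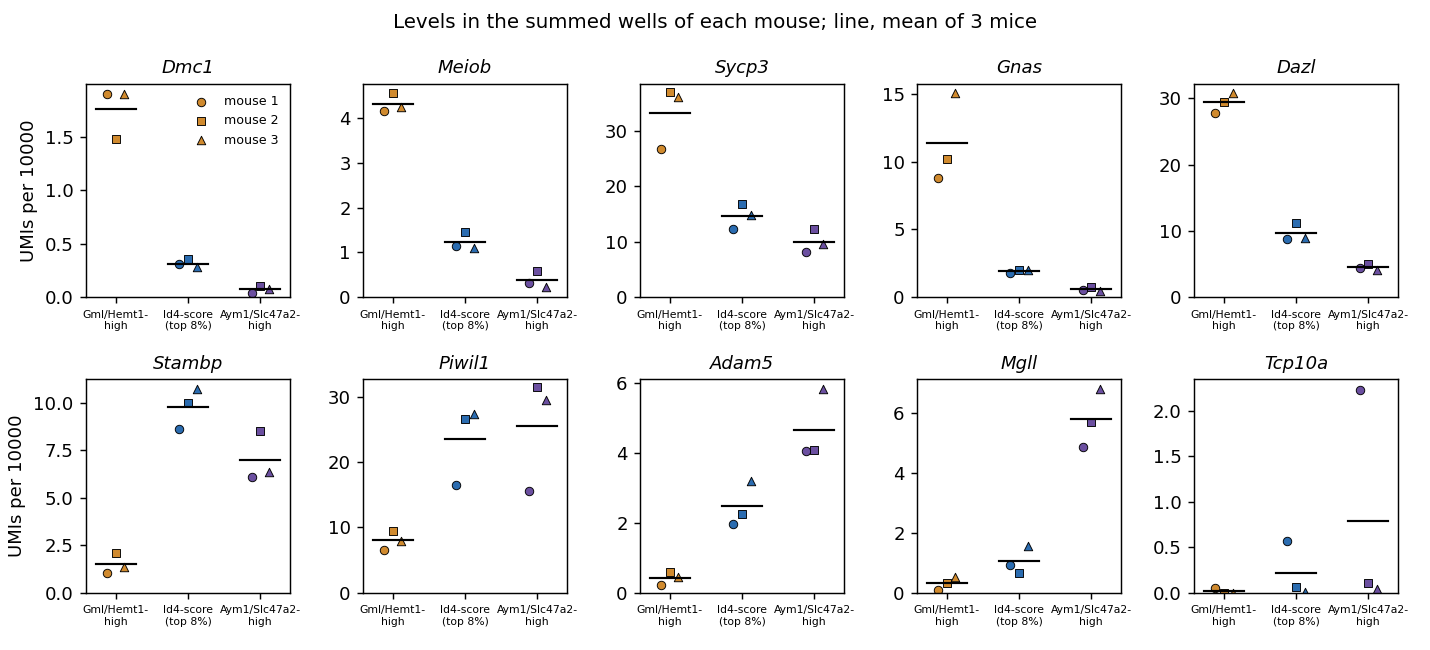
Levels of 10 genes (vertical axes, UMIs per 10000 of the summed wells) in the Gml/Hemt1-high, Id4-score and Aym1/Slc47a2-high wells. Points are the single mice, and the short line in each group is the mean of the mice. Dmc1, Meiob, Gnas and Dazl step down from left to right in every mouse, and Adam5 and Mgll step up.

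Process lists were followed through both comparisons, starting with the chromosome axis. Their counts are to be read beside the shares over all genes. These were 18.1% higher and 13.2% lower against the Gml/Hemt1-high wells, and 7.56% and 8.3% against the Aym1/Slc47a2-high wells. Of 10 synaptonemal complex genes tested, 7 were lower and 1 higher than in the Gml/Hemt1-high wells (median log2 fold change −0.45), and 7 were higher and 1 lower than in the Aym1/Slc47a2-high wells (median 0.48). Sycp3, a component of the lateral elements, was at 12.2, 16.8 and 14.8 UMIs per 10000 in the members, 26.8, 37.2 and 36.2 in the Gml/Hemt1-high wells and 8.16, 12.3 and 9.57 in the Aym1/Slc47a2-high wells. Within each mouse the members lay between the neighbours, with fold changes of −1.16 ± 0.09 (adjusted p = 2.17e-12) and 0.55 ± 0.09 (adjusted p = 2.74e-05). Sycp1, the transverse filament protein, was lower than in the first neighbours (28.4 on average, 20.2 in the members, adjusted p = 1.09e-04) and higher than in the second (11.4, 0.81 ± 0.09). Syce1, of the central element, went the other way, with 2.56 in the Gml/Hemt1-high wells, 4.23 in the members (0.77 ± 0.10, adjusted p = 4.30e-07) and 5.11 in the Aym1/Slc47a2-high wells.

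Recombination genes split by their role. Dmc1, the meiotic strand exchange recombinase, was at 0.307, 0.355 and 0.276 UMIs per 10000 in the members, 1.91, 1.48 and 1.91 in the Gml/Hemt1-high wells and 0.0382, 0.101 and 0.0696 in the Aym1/Slc47a2-high wells. No values overlapped between the groups, and the fold changes were −2.54 ± 0.19 (adjusted p = 9.42e-13) and 2.30 ± 0.30 (adjusted p = 9.74e-07). Mnd1, which helps Dmc1 in strand exchange, followed at −2.03 ± 0.23 and 2.14 ± 0.31. Meiob, a single-strand DNA binding protein of meiosis, was at 1.15, 1.46 and 1.10 in the members, 4.16, 4.56 and 4.25 in the first neighbours (−1.79 ± 0.13, adjusted p = 8.33e-13) and 0.317, 0.588 and 0.231 in the second (adjusted p = 5.90e-10). Of all 16 strand exchange genes, 4 were higher and 5 lower than in the first neighbours (median 0.19), and 7 higher and 2 lower than in the second (median 0.15). Of 7 genes of break formation, 1 was higher (Spo11, 0.78 ± 0.16) and 1 lower (Gm960) than in the first neighbours, near the shares over all genes, and Zcwpw1 was higher than in the second.

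With the settings used throughout, the crossover genes that were called were higher in the members. Of 11 tested, 5 were higher, none lower and 6 not called against the Aym1/Slc47a2-high wells (median 0.32). Msh4, Ccnb1ip1, Hfm1 and Cntd1 were among the higher ones. Against the Gml/Hemt1-high wells Mlh3 and Exo1 were higher and none lower (median −0.06), a share near the 18.1% over all genes. There the direction of the calls depended on the settings. A top 12% gave 4 higher and 2 lower, wells of at least 5000 UMIs 3 and 1, and leaving out plate 8 gave 2 and 1. Cntd1, a cyclin-like protein that limits and places crossovers, was at 3.97, 1.72 and 1.68 UMIs per 10000 in the members, 4.24, 1.54 and 1.36 in the Gml/Hemt1-high wells and 2.20, 0.974 and 0.879 in the Aym1/Slc47a2-high wells. Mouse 1 was high in every group, and within each mouse the members were above the second neighbours (0.90 ± 0.13, adjusted p = 3.61e-06). Against the first neighbours Cntd1 was not called (0.10, adjusted p = 0.633). Msh4, which stabilises recombination intermediates, averaged 1.12 in the members, 1.19 in the Gml/Hemt1-high wells and 0.584 in the Aym1/Slc47a2-high wells (0.79 ± 0.15, adjusted p = 2.62e-04). Mlh3, part of the nuclease of the final step, averaged 1.55 against 0.831 in the Gml/Hemt1-high wells (0.91 ± 0.15), and Exo1 0.324 against 0.120 (1.62 ± 0.34).

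Genes of sex chromosome silencing did not rise over the Gml/Hemt1-high wells, with none of 14 higher and 5 lower (median −0.08). H2afx, the histone variant that is phosphorylated over the XY body, was at 2.33, 3.001 and 1.84 UMIs per 10000 in the members, 4.11, 5.19 and 3.20 in the first neighbours (−0.78 ± 0.12, adjusted p = 2.28e-06) and 1.48, 1.68 and 1.12 in the second (0.73, adjusted p = 2.71e-05). Topbp1, which activates the ATR kinase on the axes, averaged 4.49, 4.55 and 3.08 in the members, first and second neighbours, and was called against the second only (0.53 ± 0.09). Atr averaged 8.07, 8.19 and 8.61 and Mdc1, which spreads the signal over the chromatin, 5.99, 5.87 and 5.60, with neither called. Against the Aym1/Slc47a2-high wells 4 of the 14 were higher and 1 lower (median 0.34).

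Autosomal retrocopies, intronless copies of X-linked genes that can stand in when the X is silent, were read with their X-linked progenitors. Of 10 retrocopies, 5 were higher and 2 lower than in the Gml/Hemt1-high wells (median 0.34), and 3 higher and 2 lower than in the Aym1/Slc47a2-high wells (median 0.16). Cetn1, a centrin, was at 2.56, 1.86 and 2.50 UMIs per 10000 in the members, 0.619, 0.755 and 0.699 in the first neighbours (1.84 ± 0.15, adjusted p = 1.08e-11) and 4.24, 3.98 and 4.13 in the second. Its X-linked progenitor Cetn2 had 4 UMIs in all members and 13 in the Gml/Hemt1-high wells (−2.98 ± 0.80, adjusted p = 3.82e-03). Rbmxl2, a splicing factor, was higher than in both neighbours, averaging 4.12 against 3.43 (0.34, adjusted p = 1.54e-02) and 2.59 (0.68, adjusted p = 5.37e-06). Of 9 progenitors tested, Rpl10, Rpl39 and Cetn2 were lower than in the first neighbours and none was higher (median −0.99), and none was called against the second.

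The piRNA genes were mostly up over the earlier neighbours. Of 19 tested, 11 were higher and 2 lower than in the Gml/Hemt1-high wells (median 0.41), and 4 were higher and 3 lower than in the Aym1/Slc47a2-high wells (median −0.00). Piwil1, the PIWI protein that binds pachytene piRNAs, was at 16.5, 26.6 and 27.4 UMIs per 10000 in the members, 6.57, 9.47 and 7.95 in the Gml/Hemt1-high wells (1.56 ± 0.11, adjusted p = 2.09e-13) and 15.6, 31.4 and 29.4 in the Aym1/Slc47a2-high wells (−0.10, adjusted p = 0.605). Mouse 1 was the lowest in each group. Tdrd6, a tudor protein of the chromatoid body, was at 1.15, 1.30 and 1.46 in the members, far above 0.222, 0.378 and 0.559 in the first neighbours (1.81 ± 0.19) and below 2.78, 3.31 and 3.29 in the second (−1.25 ± 0.11). Mov10l1, the helicase that starts piRNA processing, was lower than in the first neighbours (4.48 against 9.78, −1.08 ± 0.09, adjusted p = 1.29e-11) and higher than in the second (3.21, 0.46).

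Transcription factors of pachytene were called in both directions. Of 20 tested, 5 were higher and 4 lower than in the Gml/Hemt1-high wells (median 0.29), beside 18.1% and 13.2% of all genes. Against the Aym1/Slc47a2-high wells 1 was higher and 2 lower (median −0.20), near the shares over all genes. Hsf5, a testis heat shock factor, was at 5.58, 7.23 and 7.20 UMIs per 10000 in the members and 3.72, 4.03 and 4.56 in the first neighbours (0.72 ± 0.10, adjusted p = 3.61e-07). Crem, an activator of the postmeiotic programme, was called higher than in both, averaging 1.33 against 1.04 (0.41, adjusted p = 3.09e-02) and 1.01 (0.37, adjusted p = 3.19e-02). Mybl1, the master regulator of pachytene piRNA transcription, averaged 0.523 in the members and 0.617 in the Gml/Hemt1-high wells and was not called (adjusted p = 0.455), nor was Rfx2, at 2.64 and 2.21 (adjusted p = 0.0743). Ovol1 was lower than in the Aym1/Slc47a2-high wells, at 0.0502 against 0.187 (−1.86 ± 0.38, adjusted p = 5.66e-04).

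Acrosome and sperm surface genes were mostly higher than in the first neighbours and mostly lower than in the second. Of 18 tested, 14 were higher and 4 lower than in the Gml/Hemt1-high wells (median 1.70), and 3 higher and 11 lower than in the Aym1/Slc47a2-high wells (median −0.61). Without the near-identical copies Tcp10a, Tcp10b and Tcp10c, 11 of 15 were higher and 4 lower (median 1.23), and 3 higher and 8 lower (median −0.54). Adam5, a sperm surface metalloprotease family gene, was at 1.98, 2.25 and 3.21 UMIs per 10000 in the members, 0.222, 0.598 and 0.455 in the first neighbours (2.72 ± 0.18, adjusted p = 8.95e-14) and 4.07, 4.08 and 5.83 in the second (−0.93 ± 0.11, adjusted p = 5.84e-08). Crisp2, an acrosomal and tail protein, was at 5.46, 6.32 and 8.07, between 1.51, 2.20 and 2.29 in the first neighbours (1.79 ± 0.11) and 8.35, 11.3 and 12.5 in the second (−0.68). Spaca1, Tex101, Ly6k and Dpep3 went the other way against the first neighbours. Tex101, a membrane protein of germ cells from spermatocytes on, averaged 11.98 in the members, 18.8 in the first and 8.61 in the second neighbours (−0.62 and 0.48).

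Axoneme genes, which build the core of the sperm tail, were higher than in the Gml/Hemt1-high wells for 11 of 13 with none lower (median 1.35), and lower than in the Aym1/Slc47a2-high wells for 5 of 13 with none higher (median −0.41). Spag16, of the central pair, was at 0.850, 0.553 and 0.936 UMIs per 10000 in the members, 0.143, 0.126 and 0.157 in the first neighbours (2.55 ± 0.26, adjusted p = 1.24e-09) and 1.31, 1.10 and 1.34 in the second (−0.62). Hydin, also of the central pair, averaged 0.786 against 0.183 (2.17 ± 0.26) and 1.05 (−0.52). Of 17 pachytene markers tested, 10 were higher and none lower than in the first neighbours (median 0.83), and none higher and 4 lower than in the second (median −0.27). Ldhc, the germ cell lactate dehydrogenase, was at 16.7, 19.6 and 28.2 against 5.46, 6.58 and 7.17 in the Gml/Hemt1-high wells (1.76 ± 0.12, adjusted p = 2.06e-13). Spag6, also counted among the axoneme genes, rose by 1.69 ± 0.17.

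Genes of entry into the meiotic divisions were mixed. Of 18 tested, 3 were higher and 3 lower than in the Gml/Hemt1-high wells (median 0.14), near the shares over all genes. Against the Aym1/Slc47a2-high wells 3 were higher and none lower (median 0.10). Pkmyt1, a kinase that holds CDK1 inactive, was at 1.62, 1.32 and 2.33 UMIs per 10000 in the members and 0.683, 0.472 and 0.996 in the first neighbours (1.32 ± 0.16, adjusted p = 3.03e-08). Cdk1 itself averaged 1.56 in the members, 2.78 in the first neighbours (−0.80, adjusted p = 1.05e-05) and 1.23 in the second (0.42, adjusted p = 1.98e-02). Ccnb1, its cyclin, followed the same order with 0.370, 0.867 and 0.239.

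The list counts were also taken under other settings, chosen after the data were seen. With the score from thinned wells, 9 of 13 axoneme genes (median 0.76), 8 of 19 piRNA genes and 6 of 17 pachytene markers were higher than in the Gml/Hemt1-high wells, and 5 of 10 synaptonemal complex genes lower. Against the Aym1/Slc47a2-high wells 4 of 13 axoneme genes were then lower and 4 of 10 synaptonemal complex genes higher. Without plate 8, no axoneme gene was called against the Aym1/Slc47a2-high wells (median −0.24), and 3 of 10 synaptonemal complex genes (median 0.38), 2 of 10 crossover genes and 5 of 15 strand exchange genes were higher. The medians of the axoneme and synaptonemal complex lists kept their sign in both settings and both comparisons. Pachytene transcription factors went from 5 to 1 higher of 20 with thinning against the Gml/Hemt1-high wells.

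**Figure D5:**
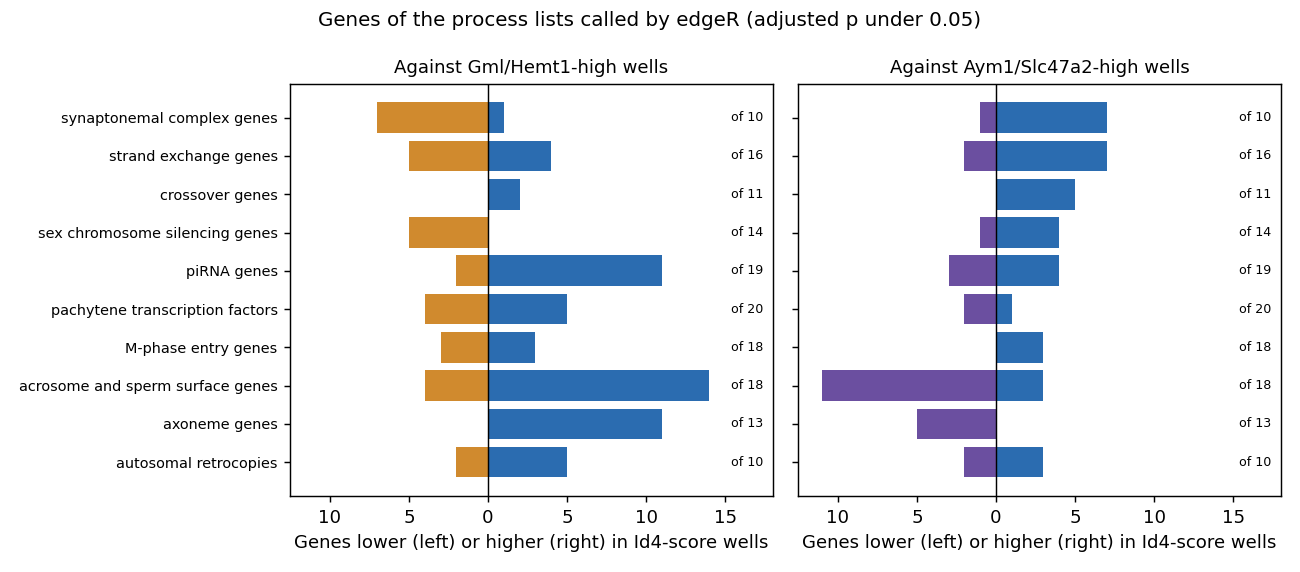
Number of genes in each process list called by edgeR as lower (bars to the left) or higher (bars to the right) in the Id4-score wells than in the Gml/Hemt1-high wells and than in the Aym1/Slc47a2-high wells, with the number tested at each bar. Axoneme genes were called higher for 11 of 13 in the first comparison and lower for 5 of 13 in the second, while synaptonemal complex genes went the opposite way.

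The pathways of the score genes were read without the score genes themselves. Of 19 other helix-loop-helix genes tested, 1 was higher and 4 lower than in the Gml/Hemt1-high wells (median −0.37). Against the Aym1/Slc47a2-high wells 2 were higher and 1 lower (median 0.19). In this list the E proteins, which Id4 binds, are Tcf3, Tcf4 and Tcf12, so its counts do not describe partners of Id4 alone. Tcf12, an E protein and so a partner of Id4, was higher than in the second neighbours (0.83, adjusted p = 1.02e-02), while Tcf3 and Tcf4 were called in neither comparison. Hif1a (−1.55 ± 0.34) and Arntl (−2.38 ± 0.56), which belong to the PAS branch of the family, were lower than in the first neighbours. Of 8 glutathione genes, 4 were higher and 1 lower than in the first neighbours (median 0.60) and 2 lower than in the second. Gstm5 was at 7.05, 7.40 and 9.96 UMIs per 10000 in the members and 2.65, 2.93 and 2.97 in the Gml/Hemt1-high wells (1.55 ± 0.11, adjusted p = 4.87e-13). Gstt3, of the same class as Gstt2, averaged 0.385 against 0.173 (1.40 ± 0.33, adjusted p = 1.25e-03) and was not called against the Aym1/Slc47a2-high wells (adjusted p = 0.426).

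Sphingolipid genes, the pathway of Sgpp1, held 1 higher and 3 lower of 10 against the first neighbours (median −0.22) and 2 higher and 1 lower against the second (median 0.08). Cers3, a ceramide synthase for very long chains, was at 7.39, 9.46 and 10.01 UMIs per 10000 in the members and 3.29, 5.98 and 5.21 in the Gml/Hemt1-high wells (0.97 ± 0.11, adjusted p = 6.42e-09). Of 10 lipid droplet genes, Bscl2 and Pnpla2 were higher than in the first neighbours and lower than in the second, with medians over the list of 0.00 and −0.16. Bscl2, which encodes seipin, the partner of the Tmem159 protein, was at 3.66, 4.80 and 5.39 in the members, 1.33, 1.95 and 2.18 in the first neighbours (1.39 ± 0.11, adjusted p = 6.61e-12) and 4.80, 5.70 and 6.75 in the second (−0.33, adjusted p = 7.14e-03). None of 3 patched genes, the family of Ptchd3, was called in either comparison.

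Against all other kept wells the members were described by size alone, with no test. The 6 score genes were left out. Of 4412 other genes with enough UMIs, 3 were at least 2-fold higher in 3 of 3 mice (0.068%) and 151 at least 2-fold lower (3.42%). The 3 were Stambp, Cntd1 and Hemt1, the last being a gene that chose the first neighbours, which are part of the other wells. A sum weights deep wells, and with the mean over wells instead the counts were 82 and 339. Of the 151 lower genes, 31 were X-linked, out of 33 X-linked genes considered. A gene low in the members could be considered through its level in the other wells alone. The share of 31 in 33 is thus set in part by which genes were considered, and edgeR tested 295 X-linked genes. Taf7l, an X-linked germ cell subunit of the general transcription machinery, averaged 0.0583 UMIs per 10000 in the members and 2.39 in the others, at least 30.1-fold lower in each mouse. Dmrt1, an autosomal regulator of spermatogonia, averaged 0.105 against 1.74, and Ccdc6 0.0258 against 0.751. The other genes with the largest ratios, Rpl36a, Eif1ax, Hdac6, Taf9b, Mageb4, Rbbp7 and Huwe1, are all X-linked. Both neighbours were low too, with Dmrt1 at 0.104 and 0.0457 and Ccdc6 at 0.0542 and 0.0725 in the Gml/Hemt1-high and Aym1/Slc47a2-high wells, and Taf7l at 0.222 and 0.066. Of the pachytene markers none of 12 considered passed 2-fold either way (median log2 ratio 0.46, beside 0.06 over all genes considered). Of 10 differentiating spermatogonia markers only 5 were considered, namely Kit, Dnmt3b, Uchl1, Crabp1 and Stra8, and all 5 were lower (median −3.10). That count too is set in part by which genes were considered.

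Stambp, which encodes a deubiquitinase of endosomal sorting, stood out among the genes that were not in the score. It was at 8.59, 9.95 and 10.7 UMIs per 10000 in the Id4-score wells of mice 1, 2 and 3, at 1.05, 2.11 and 1.35 in the Gml/Hemt1-high wells, at 6.06, 8.48 and 6.33 in the Aym1/Slc47a2-high wells and at 3.77, 4.00 and 4.39 in all other kept wells. In each mouse the members were the highest of the groups. By edgeR Stambp was higher than in both neighbours, by 2.82 ± 0.14 (adjusted p = 4.40e-17) and 0.51 ± 0.10 (adjusted p = 4.85e-04). It was named through its ratio to the other wells, which include both neighbours.

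Dazl, whose reporter was used to sort the cells, was looked at after its values were seen. It was at 8.78, 11.2 and 8.96 UMIs per 10000 in the members, 27.8, 29.5 and 30.9 in the Gml/Hemt1-high wells and 4.37, 5.03 and 4.05 in the Aym1/Slc47a2-high wells. The members lay between the neighbours in every mouse, and all other kept wells averaged 11.7. The protein of the reporter set the sort, so how far this RNA level shaped which cells were caught was not tested.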

How the data were processed

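Per the labels' protocols, polyadenylated RNA of sorted single cells was made into libraries by SORT-Seq with CEL-Seq1 or CEL-Seq2. BWA 0.7.10 and the mm10 build are named in the submitters' processing notes, and the counting tool and annotation are not given in the sources used here. The authors deposited whole-number UMI counts per gene and well, which were used as deposited, and tables of reads and of transcripts that were not used. The largest count was 256 in mouse 1 and 1711 in mice 2 and 3, which fits 256 and 4096 possible UMIs, so abundant genes are undercounted in mouse 1. The 8 libraries of mouse 1 could not be told apart by well.

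Rows of ERCC spike-ins, mitochondrial genes, eGFP and Rn45s were dropped. Kept wells held 15620999, 5004893 and 17047458 UMIs in mice 1, 2 and 3, and the members 1693415, 506426 and 1740513, which limits the precision most in mouse 2. No doublet caller was run, since wells were sorted singly. UMIs were summed into 12 sums (4 groups in 3 mice) and fitted with edgeR 4.0.16 (TMM factors, filterByExpr, quasi-likelihood test, mouse as block, Benjamini-Hochberg adjustment) in R 4.3.3. Tested on simulated data, this procedure often missed small changes, so a gene that was not called may still differ. Levels in the text are UMIs per 10000 of the summed wells. Same-numbered sums come from the same mouse, and their deviations from the group means correlated at 0.517 to 0.928 over 8765 genes. Single values were compared by exact sign-flip tests over mice. Python 3.11.15 with pandas 2.3.3, numpy 2.4.6 and scipy 1.17.1 was used.

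Against each neighbour the 10 genes with the largest fold change in each direction were named, among those called, moving the same way in 3 of 3 mice and at a mean CPM of at least 50 in the higher group. Against all other wells the rule was the 10 largest ratios at 0.5 UMIs per 10000 or more, and of each list up to 4 genes with the smallest p, with others needed to account for the list; some genes of the lists are not reported here. The members and lists were chosen with earlier results of these data known. Alternatives were DESeq2 1.42.0, median-ratio factors, no low-count filter, no block, collision-corrected UMIs, only the groups compared, a top 5% or 12%, 5000 UMIs per well, thinned scores, and each mouse or plate 8 left out.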

Additional observations from a re-analysis of the deposited data

How the results depend on the processing

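Over 40 named fold changes, 550 of 559 alternative values kept direction and call, 9 kept direction but lost the call, and none reversed; thinning shrank 9 of the 10 that rose over the Gml/Hemt1-high wells by over 1.5 times. Without the replicate block, which pairs the sums of a mouse, 1204 genes were higher and 776 lower than in the Gml/Hemt1-high wells, and 69 and 30 than in the Aym1/Slc47a2-high wells; 1700018L02Rik, 1700039E15Rik, 1700051A21Rik, Arsa, Rnaseh2a, Tcp10a and Them6 lost their call against the latter. Against the Gml/Hemt1-high wells, leaving out 1 mouse gave 1338 to 1868 higher and 883 to 1339 lower genes, and thinning the score gave 1327 higher. Against the Aym1/Slc47a2-high wells, leaving out 1 mouse gave 448 to 657 higher and 478 to 765 lower genes. There the top 5% gave 404 and 528, thinning 447 higher, and leaving out plate 8 205 and 192. Apart from thinning, these settings have fewer wells or mice, but the calls did not follow the number of members. Leaving out plate 8 kept 52 members, and leaving out mouse 3 kept 41. The cause of the lower counts was not tested. Median-ratio factors moved the median of all genes by −0.08 and −0.03. The X share against the Aym1/Slc47a2-high wells changed sign with the top 5% (−0.0751) and without mouse 3 (−0.0364), and leaving out 1 mouse gave −0.0364 to 0.0609. Against all other wells a 1.5-fold limit gave 72 higher and 307 lower genes and the mean over wells 82 and 339. Thinning kept 42 of 69 members. With 3 mice no single value can pass an exact test, genes with a few UMIs are limited by depth, and group and depth cannot be told apart.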

Other observations

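The X-linked RNA left in the Id4-score wells was looked at gene by gene after its values were seen, as a description. X-linked genes with a UMI numbered 357, 218 and 330 in the members of mice 1, 2 and 3, and the 5 most abundant held 31.8%, 22.8% and 24.2% of the X-linked UMIs. Ndufa1, a subunit of respiratory complex I, was among the largest in each mouse, with 1.42, 1.30 and 1.13 UMIs per 10000 in the members, against 3.52, 3.74 and 4.04 in the Gml/Hemt1-high wells. Zfx, an X-linked zinc finger transcription factor, went the other way, with 0.744, 0.434 and 0.661 in the members, 0.175, 0.189 and 0.140 in the Gml/Hemt1-high wells and 0.464, 0.446 and 0.448 in the Aym1/Slc47a2-high wells. Slitrk2, a neuronal membrane protein gene, held 2.80%, 4.18% and 3.47% of the members' X-linked UMIs.

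Several X-linked genes were counted almost only in mouse 1. Irak1, a kinase of interleukin-1 and Toll-like receptor signalling, had 775, 3 and 7 UMIs in the members of mice 1, 2 and 3, which is 13.5% of the X-linked UMIs of mouse 1. Ptchd1 had 302, 0 and 4, Magt1 269, 6 and 22, and Dkc1 242, 2 and 5. The same held outside the members for Irak1, with 11.3, 0.229 and 0.174 UMIs per 10000 in all other kept wells. Without its 5 most abundant X-linked genes the X share of the members was 0.232, 0.110 and 0.0855, so mouse 1 stayed the highest. Mouse 1 alone was measured by CEL-Seq1, and mouse and protocol cannot be told apart.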
